A study of Mus musculus with 6 samples.

Results

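The 27 genes described here encode the enzymes of cholesterol synthesis and the proteins that control the transcription factor SREBP2. They were taken by gene name from a list in pathway order and are 27 of 54118 gene models in the table. Of these genes, 20 encode synthesis enzymes, from Acat2 to Dhcr7, and 7 form a control arm of Srebf2, Scap, Insig1, Insig2, Mbtps1, Mbtps2 and Stard4. The cells were primary hepatocytes, the liver's metabolic cells, perfused out of C57BL/6 mice, kept in RPMI 1640 medium with 2% FBS and exposed to an adenovirus overnight. The control group of 3 samples received a beta-galactosidase (beta-Gal) virus and the other group of 3 samples received a virus for HuR, an RNA-binding protein encoded by Elavl1, so both groups carry an adenovirus and neither is uninfected. The promoter and dose of the viruses, and the age and sex of the mice, are not given in the sources used here. Values are FPKM, reads per kilobase of gene model scaled by a size factor for each library, so that levels of different genes can be set side by side.

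Cholesterol is made from acetyl-CoA through mevalonate, the isoprenoid farnesyl diphosphate, squalene and lanosterol, and the liver is a main site of this synthesis. SREBP2, the product of Srebf2, is held in the endoplasmic reticulum by its escort SCAP and the retention proteins INSIG1 and INSIG2 while sterols are plentiful. When sterols fall, SCAP carries it in COPII vesicles to the Golgi, where the site-1 and site-2 proteases, encoded by Mbtps1 and Mbtps2, release the part that enters the nucleus and switches on the synthesis genes. Insig1 is itself a target of SREBP2, and STARD4 is a carrier that moves cholesterol between membranes.

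The reads behind the values came to between 15413306 and 17108184 per library. Elavl1 was at 5.45, 5.91 and 5.62 FPKM in the beta-Gal libraries and at 2434, 1662 and 1709 FPKM in the HuR libraries, a 342-fold ratio of the means (limma adjusted p = 1.16e-06). Reads of the virus and of the mouse gene cannot be separated in this value. Of 8 hepatocyte markers all were tested. Of them 3 rose, beside 20.7% of all genes tested, and Cps1 alone fell, beside 24.8%. Their summed level was 17602 to 17943 FPKM in beta-Gal and 18852 to 20130 FPKM in HuR. Most of this sum was Alb, with means of 13387 FPKM in beta-Gal and 14857 FPKM in HuR. Apoa1 and Ttr, with higher means in HuR, and Hnf4a and Cyp2e1, with lower ones, were not called. Of 26 markers of Kupffer, endothelial, stellate, bile duct and other blood cells, 4 were abundant enough to test. Cd68 and Spp1 among them rose, and Lyve1 and Sox9 were not called (limma adjusted p = 0.335 and 0.339). The summed level went from 17.4 to 20.6 up to 30.5 to 39.9 FPKM for Kupffer cells and from 138 to 151 up to 180 to 198 FPKM for bile duct cells. Most of the Kupffer sum was Cd68 (means 18.3 and 33.2 FPKM), and most of the bile duct sum was Spp1 (means 142 and 185 FPKM). The Kupffer markers Adgre1, Clec4f, Csf1r and Vsig4 and the bile duct markers Krt19, Krt7 and Epcam stayed under 0.5 FPKM in every library. Endothelial markers summed to 2.17 to 2.80 FPKM in beta-Gal and 3.00 to 3.37 FPKM in HuR, stellate markers to 0.345 to 0.419 and 0.389 to 0.665 FPKM, and other blood cell markers to 0.0125 to 0.0575 and 0.106 to 0.144 FPKM. Kdr, Clec4g, Lrat, Des, Reln, Col1a1, Pdgfrb, Ptprc, Cd3e, Cd79a and S100a8 among them were under 0.5 FPKM in every library. The part of these markers in the results below was not tested, and in bulk RNA fewer cells of a type and less RNA per cell cannot be told apart. The labels do not say whether samples within a group are separate cultures or mice, and every p-value therefore reflects only how these samples vary, which may be technical.

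The synthesis enzymes did not move as a block: 8 of them fell, 2 rose and 9 did not pass the test, while in the control arm 4 genes fell and 3 rose. Idi1, Msmo1, Hmgcs1, Sqle and Hsd17b7 fell most among the enzymes, and Mbtps2 fell most in the control arm. Over the 26 genes that could be tested, 5 (19.2%) were higher in HuR, where 20.7% of all 11281 genes tested were, and 12 (46.2%) were lower, where 24.8% of all genes were (limma on log2(FPKM + 1), adjusted p under 0.05). The share of higher genes was thus near the background. The HuR values lay above all beta-Gal values for 6 genes and below them for 12, and groups did not overlap for 58.1% of all genes tested. The median log2 difference was -0.10 over the 26 genes and -0.0099 over all genes. None of the 26 genes rose by a log2 difference of at least 0.5, where 851 of all 11281 genes tested did. Of the 26 genes, 6 fell by that much, where 979 of the 11281 did. Fdps alone fell short of the filter on low values, FPKM of at least 1 in at least 3 libraries.

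**Figure D1:**
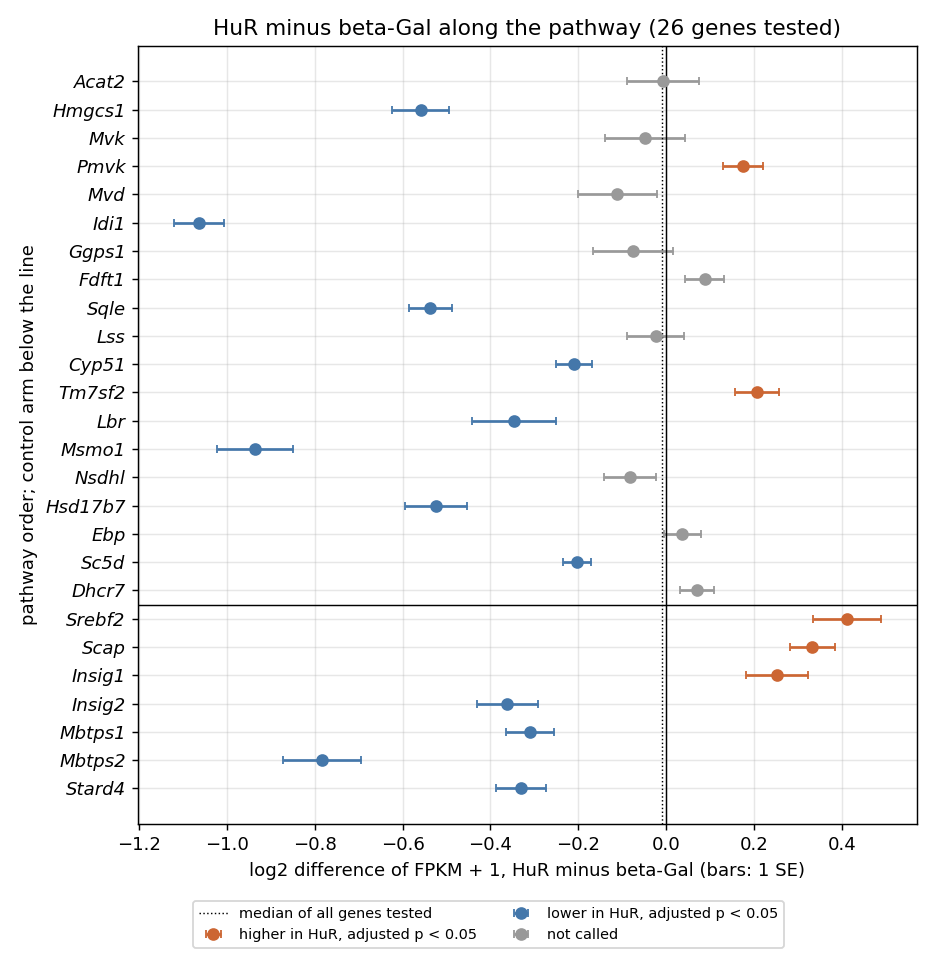
Log2 difference of FPKM + 1 between HuR and beta-Gal for the 26 genes tested, in pathway order with the control arm below the line. Points are the limma estimates with 1 SE, and colour shows the call. Idi1 lies farthest to the left at -1.06 and Srebf2 farthest to the right at 0.41, and the genes that fell are spread along the whole pathway.

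These counts depend in part on scaling and on single libraries. With each library rescaled to TPM, 2 genes were higher and 13 lower of 27 tested, and the higher calls were also 2 without beta-Gal replicate 2 or without beta-Gal replicate 3. The lower calls stayed between 11 and 12 when any single library was left out.

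Of the 5 enzymes that lead to mevalonate diphosphate and isopentenyl diphosphate, Hmgcs1 fell, Pmvk rose and Acat2, Mvk and Mvd did not pass the test. Hmgcs1 encodes HMG-CoA synthase, which joins acetoacetyl-CoA and acetyl-CoA at the head of the pathway. It was at 35.2, 34.8 and 34.2 FPKM in the beta-Gal libraries and 25.7, 22.6 and 21.7 FPKM in the HuR libraries. Every HuR library was below every beta-Gal library, and the mean fell by 32.9%, from 34.7 ± 0.505 to 23.3 ± 2.11 FPKM (log2 difference -0.56, SE 0.06, adjusted p = 7.84e-04; SD over n = 3 per group here and for all means). The gene lies on chromosome 13 from 119690379 to 119708260 of GRCm38. Hmgcs1 shares 13.6% of its transcript, in stretches of 50 bases, with Gm48342, so some of its reads could be split. Pmvk, the phosphomevalonate kinase, had means that went from 42.5 ± 1.248 to 48.1 ± 2.12 FPKM (log2 difference 0.18, SE 0.05, adjusted p = 0.0193), without overlap. This rise was not called after TPM scaling (adjusted p = 0.168), without beta-Gal replicate 2 (0.0719) or without beta-Gal replicate 3 (0.0522).

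The other 3 enzymes of this stretch had overlapping groups. Acat2, an acetoacetyl-CoA thiolase, had means of 21.6 ± 1.37 and 21.6 ± 2.24 FPKM (log2 difference -0.0070, adjusted p = 0.952). Mevalonate kinase, encoded by Mvk, stood at 3.67 ± 0.450 and 3.51 ± 0.301 FPKM (log2 difference -0.05, adjusted p = 0.693). Mvd, the mevalonate diphosphate decarboxylase, stood at 6.74 ± 0.342 and 6.19 ± 0.815 FPKM (log2 difference -0.11, adjusted p = 0.346). Acat2 shares 45.9% of its transcript, in stretches of 50 bases, with other genes, among them the neighbouring Acat3, which had 65.9 ± 1.14 and 81.4 ± 8.02 FPKM, so the split of reads between them is uncertain.

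Idi1 fell most of all 26 genes. It encodes isopentenyl diphosphate isomerase, which makes the starter unit for the longer isoprenoids. It was at 14.2, 14.7 and 13.1 FPKM in the beta-Gal libraries and 5.93, 6.45 and 6.15 FPKM in the HuR libraries. All HuR values were far below all beta-Gal values, and the mean fell by 55.9%, from 14.01 ± 0.802 to 6.18 ± 0.262 FPKM (log2 difference -1.06, SE 0.06, adjusted p = 5.14e-05). Between 313 and 899 reads per library lie behind these values, and the gene lies on chromosome 13 from 8885501 to 8892451. Across the alternatives run its log2 difference stayed between -1.23 and -1.02. Idi1 shares 30.5% of its transcript in 50-base stretches with 5 other genes, Gm13502 first among them, so its reads may be split.

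The enzymes listed after Idi1 in the isoprenoid stretch did not pass the test or, for Fdps, could not be tested. Ggps1, which makes geranylgeranyl diphosphate for protein prenylation, had means of 3.27 ± 0.422 and 3.04 ± 0.245 FPKM (log2 difference -0.08, adjusted p = 0.528). Ggps1 shares 11.8% of its 50-base stretches with 60 other genes. Fdft1 encodes squalene synthase, the step that commits the pathway to sterols, and had means of 30.9 ± 0.895 and 32.9 ± 1.24 FPKM (log2 difference 0.09, adjusted p = 0.145). Its exons overlap those of Ctsb on the opposite strand over 774 bp, or 18.3% of the gene model, and Ctsb rose from 158 ± 2.21 to 188 ± 2.64 FPKM (log2 difference 0.25, adjusted p = 9.07e-04). The sources used here do not state whether counting used strand, so reads of this stretch cannot be told apart, and centring each library on its median brought Fdft1 to a call (0.13, adjusted p = 0.0411).

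Fdps, the farnesyl diphosphate synthase, was at 0.939, 0.804 and 0.725 FPKM in the beta-Gal libraries and 0.584, 0.820 and 0.533 FPKM in the HuR libraries. The groups overlapped, and the values rest on only 35 to 66 reads per library. Its transcript shares 86.4% of its 50-base stretches with 8 other genes, Gm43738 first among them, and Gm43738 overlaps the model over 1124 bp, so this low level is uncertain and no direction was read from it.

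**Figure D2:**
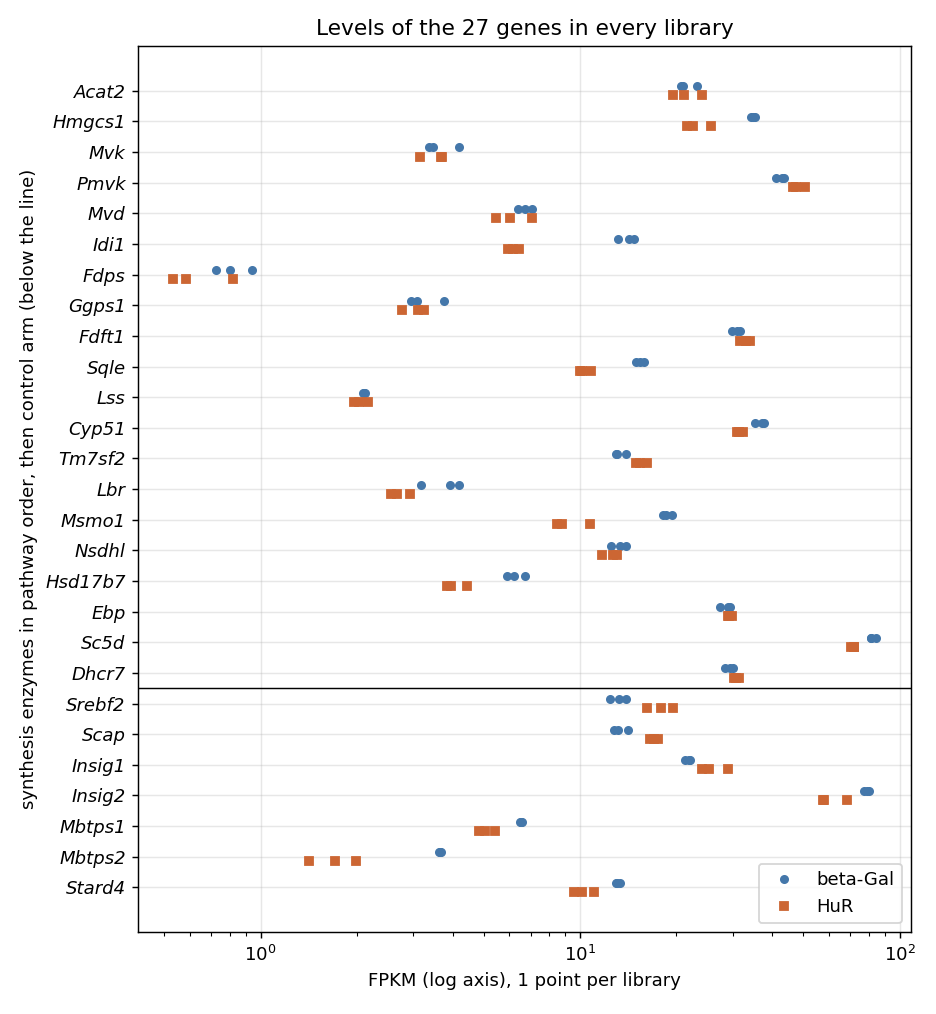
FPKM of the 27 genes in each library, on a log axis and in pathway order with the control arm below the line. Each point is 1 library, coloured by group. Sc5d is the highest enzyme in both groups, Fdps the lowest, and Idi1, Msmo1 and Mbtps2 show the widest gaps between the groups.

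From squalene to cholesterol, 6 of 11 enzymes fell, where 24.8% of all genes tested did. Tm7sf2 rose, and Lss, Nsdhl, Ebp and Dhcr7 did not pass the test. Sqle encodes squalene epoxidase, an oxygen-using and rate-limiting step of the sterol branch. It was at 14.98, 15.4 and 15.9 FPKM in the beta-Gal libraries and 10.1, 10.02 and 10.8 FPKM in the HuR libraries. All HuR values were below all beta-Gal values and close together, and the mean fell by 33.1%, from 15.4 ± 0.454 to 10.3 ± 0.439 FPKM (log2 difference -0.54, SE 0.05, adjusted p = 2.85e-04). Lss, which closes the ring to lanosterol, did not pass the test, with means of 2.10 ± 0.0103 and 2.06 ± 0.1002 FPKM (log2 difference -0.02, adjusted p = 0.791). Cyp51, the lanosterol demethylase, fell by 13.9%, from 36.7 ± 1.22 to 31.6 ± 0.723 FPKM (log2 difference -0.21, SE 0.04, adjusted p = 0.00631), without overlap.

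Lbr and Tm7sf2 both encode sterol reductases that can act on the product of Cyp51, LBR being also a protein of the inner nuclear membrane, and they went in opposite directions. Lbr fell from 3.76 ± 0.516 to 2.73 ± 0.195 FPKM (log2 difference -0.35, SE 0.10, adjusted p = 0.0245), and Tm7sf2 rose from 13.3 ± 0.558 to 15.5 ± 0.624 FPKM (log2 difference 0.21, SE 0.05, adjusted p = 0.0155). Neither call was firm. Lbr was not called without the filter on low values (adjusted p = 0.0636). It was also lost on leaving out beta-Gal replicate 1 (0.0791) or replicate 3 (0.0812), and on leaving out HuR replicate 2 (0.0709) or replicate 3 (0.0638). Lbr shares 11.3% of its 50-base stretches with Dnah14. Tm7sf2 was not called after TPM scaling (0.102), without beta-Gal replicate 2 (0.0597) or without beta-Gal replicate 3 (0.0600). The table's model of Tm7sf2 ends at 6077197 on chromosome 19, past the end at 6068373 in GENCODE M21, and runs across Vps51, so its value may include reads of that gene.

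The enzymes that remove the next methyl groups from the sterol ring are Msmo1, Nsdhl and Hsd17b7, which act in turn. Msmo1, the methyl sterol monooxygenase, was at 18.6, 19.4 and 18.1 FPKM in the beta-Gal libraries and 10.8, 8.50 and 8.75 FPKM in the HuR libraries. The groups were far apart, and the mean fell by 50.1%, from 18.7 ± 0.637 to 9.34 ± 1.246 FPKM (log2 difference -0.94, SE 0.09, adjusted p = 3.20e-04). Hsd17b7, the ketosteroid reductase that ends this demethylation, was at 5.92, 6.72 and 6.19 FPKM in the beta-Gal libraries and 4.42, 3.94 and 3.82 FPKM in the HuR libraries. It too had no overlap and fell by 35.3%, from 6.28 ± 0.404 to 4.06 ± 0.320 FPKM (log2 difference -0.52, SE 0.07, adjusted p = 0.00140). Nsdhl, the dehydrogenase between them, did not pass the test, with means of 13.3 ± 0.718 and 12.5 ± 0.701 FPKM (log2 difference -0.08, adjusted p = 0.302), though it was called lower after TPM scaling (-0.19, adjusted p = 0.0371).

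Of the last 3 steps 1 fell. Ebp, the sterol isomerase, had means of 28.7 ± 1.11 and 29.4 ± 0.446 FPKM (log2 difference 0.04, adjusted p = 0.499). Sc5d, the sterol desaturase, fell by 13.3%, from 82.3 ± 1.61 to 71.4 ± 0.969 FPKM (log2 difference -0.20, SE 0.03, adjusted p = 0.00294). Dhcr7 encodes the reductase that turns 7-dehydrocholesterol into cholesterol. Its HuR values lay above all beta-Gal values, with means of 29.3 ± 0.871 and 30.8 ± 0.641 FPKM, but it did not pass the test (log2 difference 0.07, adjusted p = 0.188); it was called after median centring (0.11, adjusted p = 0.0445), and its sign turned after TPM scaling (-0.04). Fdft1 and Ebp turned in sign with it there (-0.02 and -0.07).

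Summed over the 20 enzymes, the level was 410.0, 407.7 and 406.5 FPKM in the beta-Gal libraries and 376.8, 363.3 and 355.4 FPKM in the HuR libraries. All HuR sums were lower, with means of 408 ± 1.77 and 365 ± 10.8 FPKM, and no test was made of a sum over chosen genes. Sc5d alone made up 19.1 to 20.6% of it.

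The control arm split in direction, and all 7 genes passed the test. Of them 3 rose (42.9%, beside 20.7% of all genes tested) and 4 fell (57.1%, beside 24.8%). Srebf2, Scap and Insig1 rose, while Insig2, Mbtps1, Mbtps2 and Stard4 fell. Srebf2 itself was at 13.96, 13.2 and 12.4 FPKM in the beta-Gal libraries and 19.6, 17.9 and 16.2 FPKM in the HuR libraries. Every HuR library was above every beta-Gal library, and the mean rose by 35.9%, from 13.2 ± 0.794 to 17.9 ± 1.69 FPKM (log2 difference 0.41, SE 0.08, adjusted p = 0.00539). The gene lies on chromosome 15 from 82147181 to 82205379. Scap, the escort, was at 14.1, 12.7 and 13.1 FPKM in the beta-Gal libraries and 17.1, 17.5 and 16.6 FPKM in the HuR libraries. It rose by 27.8% with no overlap, from 13.3 ± 0.727 to 17.04 ± 0.472 FPKM (log2 difference 0.33, SE 0.05, adjusted p = 0.00247). Scap shares 13.1% of its 50-base stretches with 5830462I19Rik, so some of its reads could be split.

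The pair of INSIG genes moved apart. Insig1, the member of the pair that SREBP2 induces, was at 21.9, 22.01 and 21.3 FPKM in the beta-Gal libraries and 29.1, 24.1 and 25.3 FPKM in the HuR libraries. The HuR libraries were all higher, HuR replicate 1 most of all, with means that went from 21.7 ± 0.375 to 26.2 ± 2.59 FPKM (log2 difference 0.25, SE 0.07, adjusted p = 0.0247). This call was lost without the filter on low values (adjusted p = 0.0547), after TPM scaling (0.0517) and without beta-Gal replicate 1, 2 or 3 (0.0640, 0.0629 and 0.0775). Insig2, the more abundant of the pair, was at 77.1, 79.2 and 80.3 FPKM in the beta-Gal libraries and 68.4, 58.2 and 57.5 FPKM in the HuR libraries. All HuR values were lower, HuR replicate 1 least so, and the mean fell by 22.2%, from 78.9 ± 1.62 to 61.4 ± 6.06 FPKM (log2 difference -0.36, SE 0.07, adjusted p = 0.00589). The ratio of Insig2 to Insig1 was thus 3.52, 3.60 and 3.77 in beta-Gal and 2.35, 2.41 and 2.27 in HuR, with Insig2 above Insig1 in all 6 libraries.

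Both proteases fell. Mbtps1, which makes the first break in SREBP2, was at 6.51, 6.58 and 6.55 FPKM in the beta-Gal libraries and 4.82, 5.04 and 5.42 FPKM in the HuR libraries. The beta-Gal values were nearly the same and all HuR values lay below them, and the mean fell by 22.2%, from 6.55 ± 0.0395 to 5.09 ± 0.301 FPKM (log2 difference -0.31, SE 0.05, adjusted p = 0.00426). Mbtps2, which makes the second break within the membrane, was at 3.63, 3.66 and 3.65 FPKM in the beta-Gal libraries and 1.99, 1.71 and 1.42 FPKM in the HuR libraries. Here too the beta-Gal values lay close together, the HuR values were spread well below them, and the mean fell by 53.1%, from 3.65 ± 0.0173 to 1.71 ± 0.285 FPKM (log2 difference -0.78, SE 0.09, adjusted p = 7.36e-04). Mbtps2, on chromosome X from 157535371 to 157598715, overlaps the exons of Yy2 over 28.4% of its model, and Yy2 was listed at 0 FPKM in every library. Yy2 lies on the same strand, so reads of this stretch cannot be told apart, and the values of both genes are uncertain to that extent. The ratio of Mbtps1 to Mbtps2 was 1.79, 1.80 and 1.80 in beta-Gal and 2.42, 2.94 and 3.81 in HuR.

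Stard4, the sterol carrier and an SREBP2 target, was at 13.4, 12.99 and 13.1 FPKM in the beta-Gal libraries and 10.1, 9.60 and 11.03 FPKM in the HuR libraries. The HuR values were all lower, and the mean fell by 21.97%, from 13.1 ± 0.201 to 10.3 ± 0.724 FPKM (log2 difference -0.33, SE 0.06, adjusted p = 0.00378). Srebf2 and Scap among the genes that rose, and the 11 genes other than Lbr among those that fell, were called the same way in every alternative that tested them.

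**Figure D3:**
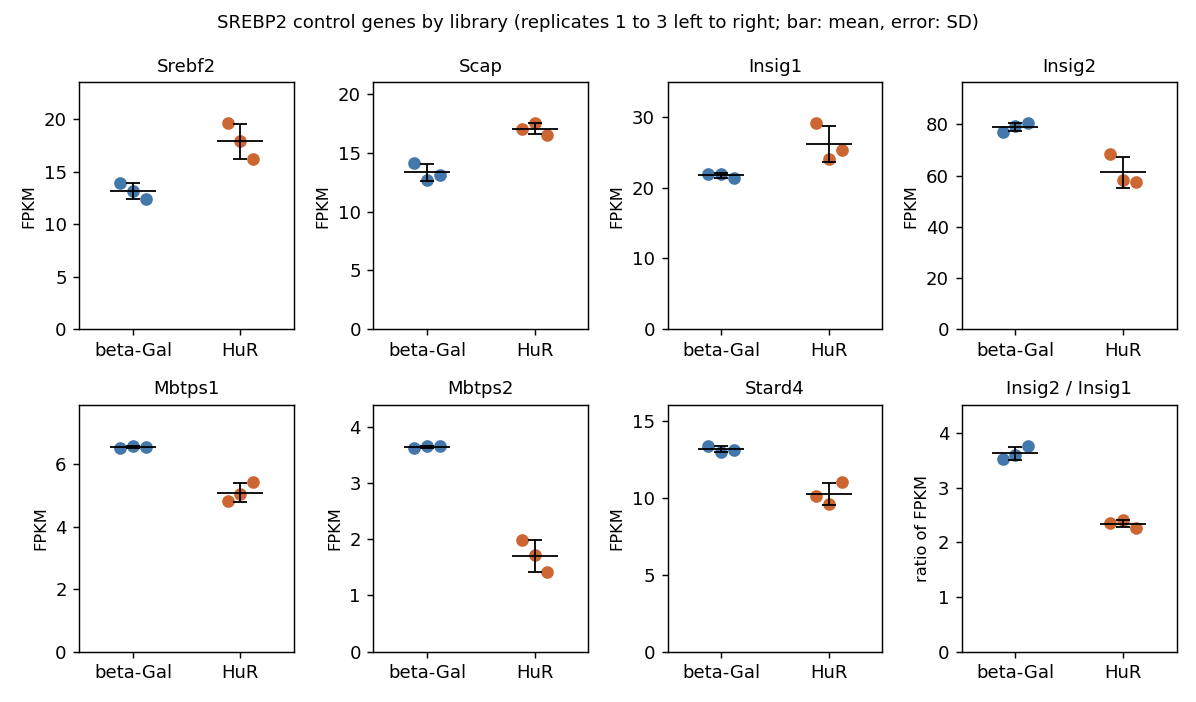
FPKM of the 7 control genes in each library, 1 panel per gene with its own axis from 0. Points are libraries, and bars are group means with SD (n = 3). Srebf2, Scap and Insig1 are higher in all 3 HuR libraries, and Insig2, Mbtps1, Mbtps2 and Stard4 are lower in all 3.

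The median coefficient of variation over the 27 genes was 3.41% in beta-Gal, from 0.474% for Mbtps2 to 13.7% for Lbr, and 7.06% in HuR, from 1.36% for Sc5d to 23.7% for Fdps. HuR replicate 1 was the highest of its group for 17 of the 27 genes (63.0%), where it was highest for 43.3% of all genes tested. It had the highest Elavl1 value as well. The library total used in its FPKM, 1.51e+07, was also below its 15902608 reads, while in every other library that total was above the reads. The part of either in these genes was not tested.

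Promoter letters were read for the 23 genes with an entry in the RefSeq table of GRCm38.p6, from 250 bases before to 50 bases after each start. Stard4, Fdft1, Sqle and Fdps have no entry. The windows below include those of the 3 genes with a match to the form TCACNCCA of the sterol regulatory element, the site that SREBP2 binds. The others belong to Idi1, which fell most, and to Insig1, a gene of the control arm that rose. Capitals mark this form of the element, the NF-Y box CCAAT and the E-box CACGTG. Each was searched on both strands, so a box on the other strand reads ATTGG. Where a window holds several matches, none of the printed ones overlap.
Hmgcs1 chr13:119690101-119690400 (plus strand): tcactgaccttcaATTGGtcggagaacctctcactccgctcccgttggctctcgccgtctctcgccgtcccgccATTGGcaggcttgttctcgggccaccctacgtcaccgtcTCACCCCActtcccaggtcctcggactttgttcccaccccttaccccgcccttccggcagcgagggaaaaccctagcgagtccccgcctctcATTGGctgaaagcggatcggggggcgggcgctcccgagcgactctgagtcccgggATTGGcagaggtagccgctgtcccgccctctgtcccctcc
Msmo1 chr8:64733529-64733828 (minus strand): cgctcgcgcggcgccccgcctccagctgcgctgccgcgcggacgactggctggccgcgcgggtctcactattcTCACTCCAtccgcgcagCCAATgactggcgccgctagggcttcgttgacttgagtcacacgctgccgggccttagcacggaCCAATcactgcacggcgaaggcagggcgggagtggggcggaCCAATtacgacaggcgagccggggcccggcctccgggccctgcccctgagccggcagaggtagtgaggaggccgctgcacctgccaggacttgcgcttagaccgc
Srebf2 chr15:82147019-82147318 (plus strand): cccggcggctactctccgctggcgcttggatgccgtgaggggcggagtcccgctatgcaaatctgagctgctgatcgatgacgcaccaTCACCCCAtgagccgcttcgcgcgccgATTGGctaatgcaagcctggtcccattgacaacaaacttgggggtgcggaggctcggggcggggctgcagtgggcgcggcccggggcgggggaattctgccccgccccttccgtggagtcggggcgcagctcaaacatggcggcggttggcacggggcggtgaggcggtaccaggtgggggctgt
Idi1 chr13:8885356-8885655 (plus strand): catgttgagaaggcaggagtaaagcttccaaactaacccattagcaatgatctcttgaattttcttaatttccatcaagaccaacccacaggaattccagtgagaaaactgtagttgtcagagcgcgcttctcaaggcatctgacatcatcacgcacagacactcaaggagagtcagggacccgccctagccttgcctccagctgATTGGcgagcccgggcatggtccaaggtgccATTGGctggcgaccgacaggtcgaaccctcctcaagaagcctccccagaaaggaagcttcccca
Insig1 chr5:28071162-28071461 (plus strand): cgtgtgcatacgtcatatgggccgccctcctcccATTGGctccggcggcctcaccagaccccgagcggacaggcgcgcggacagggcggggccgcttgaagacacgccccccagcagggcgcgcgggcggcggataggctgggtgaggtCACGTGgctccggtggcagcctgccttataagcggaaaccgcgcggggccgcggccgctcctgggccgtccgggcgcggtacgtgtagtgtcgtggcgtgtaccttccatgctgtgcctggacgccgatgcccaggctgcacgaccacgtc
The element stood as TCACCCCA beginning 137 bases before the start in Hmgcs1 and 162 bases before it in Srebf2, and as TCACTCCA 177 bases before it in Msmo1. It was found in 3 of the 29 windows of the 23 genes and in 4.36% of all 32851 windows of the table. Of these 3 genes Hmgcs1 and Msmo1 fell and Srebf2 rose. A longer form flanked by A and C, ATCACNCCAC, was in none of the 23 genes and in 0.234% of all windows. The NF-Y box, bound by a factor that works with SREBP2 at many sterol genes, was in 19 of the 29 windows of the 23 genes, some of which have more than 1 window, and in 37.4% of all windows. It was in 4 of the 5 genes with a window that rose and in 8 of the 10 that fell, the same share. The E-box was in 6 of the 29 windows, in windows of Hsd17b7, Sc5d, Dhcr7, Scap and Insig1, and in 7.15% of all windows. The windows of Scap overlap and hold the same E-box, which was thus counted in each of them. These matches describe letters only. Other forms of the sterol regulatory element were not searched, so a gene without a match may still hold such an element.

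The genes that rose had a higher median GC content than those that fell. Transcript GC content, from GENCODE M21, had a median of 57.0% in the 5 genes that rose, 51.8% in the 9 that were not called and 44.7% in the 12 that fell. Insig1 was the lowest of the first group at 48.2%, and Mbtps1 the highest of the last at 52.4%, so the 2 ranges overlap. Among all 9672 tested protein-coding genes with a transcript the medians were 52.9% for those that rose and 46.6% for those that fell, so the same order held across the transcriptome. The correlation of GC content with the log2 difference was r = 0.65 and rho = 0.65 over the 26 genes, and r = 0.29 and rho = 0.33 over the 9672 genes. These are correlations across genes, which share the same 6 libraries and are not independent replicates. Whether GC content plays a part in the differences was not tested.

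**Figure D4:**
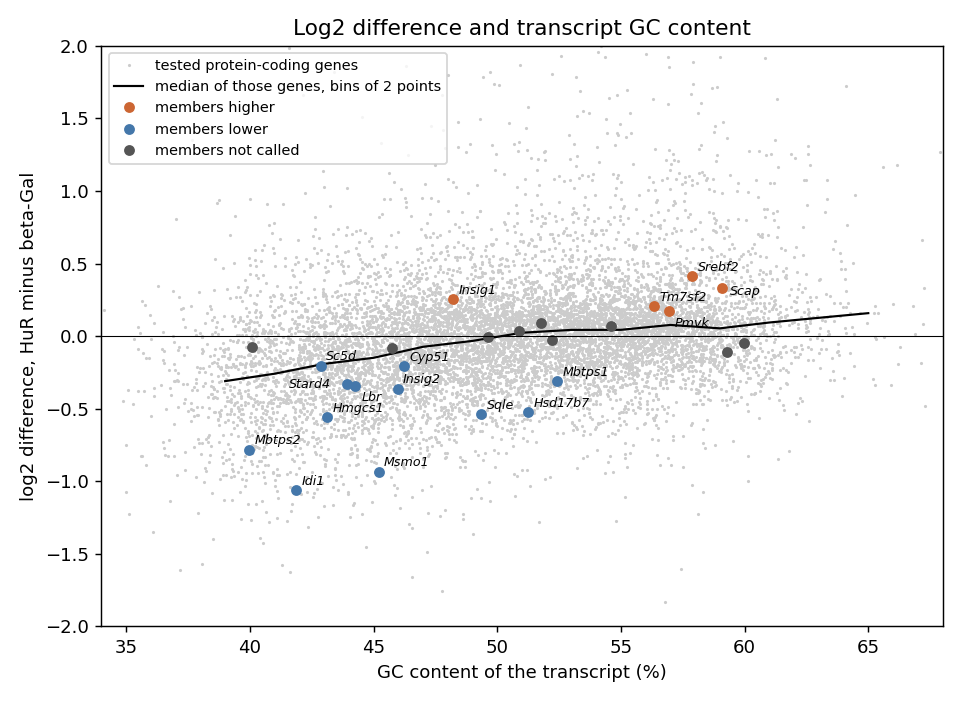
Log2 difference of FPKM + 1 (HuR minus beta-Gal) against the GC content of the transcript in percent. Grey dots are tested protein-coding genes, of which 45 lie outside the plotted window, the line is their median in bins of 2 points, and large points are the genes of the list by call. Mbtps2, Idi1 and Msmo1 lie at low GC content and well below the line, and Srebf2 and Scap lie at high GC content above it.

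HuR binds AU-rich stretches, for which the pentamer AUUUA in the 3' UTR is a common mark. The median 3' UTR was 1670.5 bases in the genes that fell and 366 bases in those that rose, and the order was the same over all tested protein-coding genes, with 1342 bases for those that fell and 672 bases for those that rose. At least 1 AUUUA was present in 10 of the 12 genes that fell and 3 of the 5 that rose, where 75.3% of all tested protein-coding genes that fell and 57.0% of those that rose had it. Per kilobase of 3' UTR the median was 1.60 in the genes that fell and 1.77 in those that rose, where it was 1.84 and 1.01 over all tested protein-coding genes. The value of 1.77 rests on 4 genes, since no density was computed for Tm7sf2, whose 3' UTR has 95 bases, and Scap among them has 6.58 from 1 AUUUA in 152 bases, so no order by density was read from so few genes. The median number of AUUUA per 3' UTR was 3.5 in the genes that fell and 1 in those that rose, and 2 and 1 over all tested protein-coding genes. The longer form UUAUUUAUU was found only in Ggps1, which did not pass the test.

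Lists of neighbouring steps were read in the same fit, in which 20.7% of all genes tested were higher and 24.8% lower. Of 11 electron donors and partners of the sterol enzymes, 2 rose (18.2%, near the 20.7% of all genes) and 4 fell (36.4%, beside 24.8% of all genes), with a median log2 difference of -0.02. Cyb5b, a cytochrome b5 of the outer mitochondrial membrane, fell from 51.4 to 34.5 FPKM (log2 difference -0.56, adjusted p = 5.09e-04), and Cyb5r2, a cytochrome b5 reductase, rose from 0.290 to 2.46 FPKM (log2 difference 1.42, adjusted p = 1.92e-04). Cyb5r2 reached the filter on low values only through the HuR libraries, so it was not tested when any of these was left out. Cyb5r4 fell from 4.80 to 3.32 FPKM (log2 difference -0.43, adjusted p = 0.00264). The count of higher genes here was 1 when replicate 1 or 2 of either group was left out, and 0 without HuR replicate 3.

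Of 16 genes tested on the isoprenoid branches, 2 rose (12.5%, beside 20.7% of all genes) and 6 fell (37.5%, beside 24.8%), with a median of -0.12. Chm and Chml, the Rab escort proteins that present Rab proteins for prenylation, fell from 3.53 to 1.33 FPKM (log2 difference -0.96, adjusted p = 1.14e-04) and from 2.00 to 0.762 FPKM (log2 difference -0.77, adjusted p = 5.92e-04). Chml reached the filter only through the beta-Gal libraries, so it was not tested when any of these was left out. Icmt, which methylates prenylated proteins, fell from 9.54 to 7.18 FPKM (log2 difference -0.37, adjusted p = 0.00160). Fnta, the shared subunit of the farnesyl and geranylgeranyl transferases, fell from 16.1 to 12.8 FPKM (log2 difference -0.31, adjusted p = 0.00700). The count of higher genes was 1 without beta-Gal replicate 2 or 3.

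Among 22 tested genes of SREBP transport, sterol-regulated degradation and oxysterol sensing, 2 rose (9.09%, beside 20.7% of all genes) and 12 fell (54.5%, beside 24.8%), with a median of -0.15. Sec23a, a coat subunit of the COPII vesicles that carry SREBP2 with its escort, was at 17.6, 17.7 and 18.1 FPKM in the beta-Gal libraries and 6.89, 6.48 and 6.29 FPKM in the HuR libraries. The groups were far apart (log2 difference -1.31, SE 0.05, adjusted p = 2.25e-05). Sec24d, another COPII subunit, fell from 15.7 to 8.87 FPKM (log2 difference -0.76, adjusted p = 1.52e-04). Erlin2 and Rnf139, which take part in degradation at the endoplasmic reticulum, fell from 11.02 to 7.34 FPKM (log2 difference -0.53, adjusted p = 4.72e-04) and from 7.67 to 5.44 FPKM (log2 difference -0.43, adjusted p = 0.00258). The count of higher genes was 1 when HuR replicate 2, HuR replicate 3 or beta-Gal replicate 1 was left out.

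Sterol uptake, transport, esterification and efflux went both ways, with 7 of 21 tested genes higher (33.3%, beside 20.7% of all genes) and 8 lower (38.1%, beside 24.8%), and a median of -0.0077. Npc1, which moves cholesterol out of lysosomes, rose from 19.2 to 27.6 FPKM (log2 difference 0.50, adjusted p = 2.24e-04), while Lipa, the lysosomal acid lipase that frees it from esters, fell from 88.6 to 60.2 FPKM (log2 difference -0.55, adjusted p = 7.66e-05). Abcg8, a subunit of the sterol exporter of the bile side, fell from 3.70 to 1.93 FPKM (log2 difference -0.68, adjusted p = 7.74e-04), and Osbpl9, an oxysterol-binding protein relative, from 27.99 to 21.9 FPKM (log2 difference -0.34, adjusted p = 9.08e-04). Of 5 tested bile acid and oxysterol enzymes none rose and 3 fell, beside 24.8% of all genes. These were Cyp8b1, which sets the cholic acid share (64.6 to 26.4 FPKM; log2 difference -1.27, adjusted p = 4.97e-04), Akr1d1 (6.17 to 3.41 FPKM; log2 difference -0.71, adjusted p = 0.00222) and Cyp7b1 (124 to 114 FPKM; log2 difference -0.13, adjusted p = 0.0229), whose call was lost after median centring (-0.08, adjusted p = 0.0926) and without HuR replicate 3 or any 1 beta-Gal replicate.

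The fatty acid genes driven by the related factor SREBP1 gave 12 of 14 lower (85.7%, beside 24.8% of all genes), 1 higher (7.14%, beside 20.7%) and a median of -0.36. Me1, which supplies NADPH, fell from 327 to 186 FPKM (log2 difference -0.81, adjusted p = 2.48e-05), and Acss2, which makes acetyl-CoA from acetate, from 22.2 to 14.4 FPKM (log2 difference -0.59, adjusted p = 7.25e-05). Gpam, the acyltransferase that starts glycerolipid synthesis, fell from 29.7 to 16.00 FPKM (log2 difference -0.86, adjusted p = 2.67e-04), and the elongase Elovl6 from 59.9 to 38.2 FPKM (log2 difference -0.64, adjusted p = 2.83e-04). The difference between the 2 lists was not tested, and the 1 higher gene was not called without beta-Gal replicate 2 or 3. Srebf1, the gene of SREBP1, was counted in the list of SREBP transport and not in this one. Its groups overlapped and it was not called, with means of 12.8 FPKM in beta-Gal and 13.3 FPKM in HuR (log2 difference 0.049).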

How the data were processed

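Sample titles gave the groups, 3 beta-Gal and 3 HuR libraries. The deposited table gives FPKM made by the authors for 54118 gene models. The submitters' processing notes name the aligner HISAT2 (version 2.0.5), the counter featureCounts (version 1.5.0-p3), DESeq2 (version 1.16.1) and the build GRCm38.p6. FPKM times gene length gave whole reads in every library (tolerance 0.001). Library totals recovered from the deposited FPKM are proportional to size factors of the median-of-ratios kind (15739 genes), so values are scaled between libraries.

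Log2(FPKM + 1) was fitted with limma (version 3.58.1, R version 4.3.3), with trend and the group alone. The two-sided p-values were adjusted by Benjamini-Hochberg over the 11281 genes that reached an FPKM of 1 in 3 or more of the 6 libraries, and the threshold was 0.05. Fold changes on this scale understate changes of low genes. The step was tested on simulated data. Members and lists were chosen with earlier results of these data known, so no list was tested. Values per library are given for called genes with an absolute log2 difference of at least 0.4 and for the control arm, and up to 4 called genes with the smallest adjusted p are named per list. Srebf1 is given besides. Some genes of the pathway and the lists are not reported here. 

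Alternatives were pseudocounts of 0.1 and 0.5, no filter, a minimum FPKM of 5, TPM scaling, median centring, a replicate block, voom on the recovered reads and leaving out each library. GC content, 3' UTRs, exon overlaps and shared 50-base stretches used GENCODE M21, which holds 99.1% of the identifiers and 27 of 27 members, 26 with the same coordinates. Tables and plots were made in Python 3.11.15 with pandas 2.3.3 and matplotlib 3.10.9.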

Additional observations from a re-analysis of the deposited data

How the results depend on the processing

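Of the 17 calls among the 26 genes tested, 13 held in every alternative that tested them, and Pmvk, Tm7sf2, Lbr and Insig1 did not. With 1 library left out, the higher calls ranged from 2 to 5 and the lower calls from 11 to 12, while those over all genes ranged from 1751 to 2114 higher and from 2046 to 2896 lower. TPM scaling left 2 higher genes in the list. It also moved the share of calls that were higher from 45.4% to 32.1% over all genes and from 29.4% to 13.3% in the list, and the median of all genes from -0.0099 to -0.0988. Median centring gave 7 higher and 12 lower genes in the list. Among uncalled genes the sign turned for Acat2 and Lss after median centring (0.0350 and 0.0184), and for Fdft1, Ebp and Dhcr7 after TPM scaling (-0.0193, -0.0708 and -0.0367). With a library left out, log2 differences ranged across 0 for Acat2 (-0.0832 to 0.0568), Mvk (-0.0965 to 0.0297) and Ggps1 (-0.127 to 0.00384). The higher count of the electron donors was 1 without a filter, at FPKM of at least 5 and after TPM scaling, and 0 to 2 with a library left out. That of the isoprenoid branches was 1 after TPM scaling and 1 to 2 with a library left out. That of SREBP processing was 1 after TPM scaling, 4 after median centring and 1 to 2 with a library left out, its lower count 8 to 12; that of the fatty acid genes was 0 to 1 with a library left out. Same-numbered samples did not deviate together (correlations -0.0294, 0.0007 and -0.0143). The replicate block left 5 higher and 12 lower genes in the list, and gave 1 higher gene in each of the electron donor and isoprenoid lists and no call for Cyp7b1 (adjusted p = 0.0567). Cyb5r2 did not reach the filter without any 1 HuR library or at FPKM of at least 5, so the electron donor count could not include it there. The cause of the other changes was not tested. Fdps had 35 to 66 reads per library, and its log2 difference without a filter was -0.15 (adjusted p = 0.399). The part of depth and of stretches shared with other genes in its low count was not tested.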
